A study of Homo sapiens with 3 samples.

Results

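The cytosolic ribosomal proteins are the protein parts of the ribosomes that translate messenger RNA in the cytoplasm. Their genes were taken as the probe sets annotated to a single symbol made of RPL or RPS and a number, with the usual A or X endings, together with RPLP0, RPLP1, RPLP2 and RPSA. This gave 89 probe sets for 51 genes, among the 11963 genes that the array covers with a single-symbol probe set. The large subunit was represented by 31 genes with 52 probe sets and the small subunit by 20 genes with 37 probe sets. All 51 genes were above the floor described next on at least 1 array, so no member was lost to the filter on low signal. A further 57 probe sets list 1 such symbol beside other genes, often the small nucleolar RNA genes that lie in ribosomal protein introns, and were not members. They include every probe set of 16 genes, so RPLP0, RPSA, RPL5, RPL10, RPL23 and RPS27A have no value of their own here.

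Transcript levels were measured in CAL 27, an established line of poorly differentiated (G3) squamous carcinoma cells of the tongue, grown in medium with fetal bovine serum. There were 3 groups of 1 array each, all described as stable transfectants: cells overexpressing GFP-Nm23-H1, cells overexpressing nm23-H2 from the same EGFP vector, and cells with the empty vector, overexpressing GFP. Nm23-H1 and Nm23-H2 are nucleoside diphosphate kinases. The design text speaks of clones for nm23-H1 and the empty vector and does not mention nm23-H2, and the sources used here do not say whether the nm23-H1 RNA came from 1 clone or several. Each construct was seen on 1 array, so construct, transfectant and array cannot be told apart. Differences have no replicate check and are given without p-values. The comparisons with vector share the vector array.

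Values are signal units after each array was scaled to a common trimmed mean, and differences are on the log2 scale. The floor was 28.3 signal units, the pooled median, and 51.6% of probe sets lay above it with nm23-H1, 47.4% with nm23-H2 and 50.9% with vector. The probe set for NME1, the gene of Nm23-H1, gave 2379 units with nm23-H1, 1132 with nm23-H2 and 1519 with vector. The probe set listing NME2, the gene of Nm23-H2, and its read-through with NME1 gave 2323, 4845 and 2272 units on the same arrays. The 18 hybridisation control probe sets, whose RNA is added in a fixed amount after labelling, had a geometric mean of 739 units with nm23-H1, 1351 with nm23-H2 and 817 with vector. All 10 keratinocyte markers with a probe set were above the floor on every array, with summed signals of 27180 units with nm23-H1, 44099.5 with nm23-H2 and 32257 with vector. Of 7 fibroblast markers, 1 was above the floor with nm23-H1, 1 with nm23-H2 and 0 with vector, and COL1A1, COL3A1, PDGFRB, DCN, LUM and FAP were at or below it on every array. Of 5 leukocyte markers, 3 were above it with nm23-H1, 0 with nm23-H2 and 1 with vector (CD3E at 58.0, 12.9 and 31.7 units, CD14 at 50.1, 18.6 and 23.5, CSF1R at 35.1, 8.37 and 18.7), and PTPRC and LYZ were at or below it on every array. Of 4 endothelial markers only PECAM1 passed it, at 43.6 units with nm23-H1, 21.9 with nm23-H2 and 35.3 with vector.

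Each ribosome holds 1 copy of nearly every one of these proteins, set on ribosomal RNA scaffolds, and cells make them in matched amounts. The small subunit reads the messenger RNA and the large subunit joins the amino acids. In mammals the transcripts of these genes are known to begin with a C followed by a run of pyrimidines, the terminal oligopyrimidine (TOP) motif, through which the mTORC1 kinase pathway controls their translation as a group. Ribosomal protein S6 is the classic substrate of the S6 kinases in that pathway.

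The annotated start sites of the genes that stood out in the comparisons show this motif and its exceptions. The windows hold the 15 bases before the start and the 15 bases from it, on the coding strand, from RefSeq on GRCh38.p14, at chr9:19380222-19380251 (minus strand) for RPS6, chr6:33272060-33272089 (plus) for RPS18, chr1:153990747-153990776 (plus) for RPS27, chr15:69452803-69452832 (plus) for RPLP1, chr22:39319609-39319638 (minus) for RPL3 and chr14:49598696-49598725 (minus) for RPS29. Capitals mark a C at the start followed by a run of at least 4 bases that are each C or T.
RPS6: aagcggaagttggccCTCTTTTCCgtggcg
RPS18: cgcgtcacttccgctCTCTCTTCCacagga
RPS27: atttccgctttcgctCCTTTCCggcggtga
RPLP1: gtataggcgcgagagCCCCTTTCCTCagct
RPL3: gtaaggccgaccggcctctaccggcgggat
RPS29: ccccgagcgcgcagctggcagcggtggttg
The first 4 windows hold the run at the annotated start, and those of RPL3 and RPS29 have no such run at that base. A start listed a few bases off would hide it. Of the 45 members in the RefSeq promoter table, 33 (73.3%) held the motif, searched on the coding strand only, against 1404 of 27305 genes in the whole table (5.14%). The share was 19 of 26 for the large subunit and 14 of 19 for the small subunit. RPL23A, RPL30, RPL37, RPL7, RPL8 and RPS15A had no entry.

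The members carried a large part of the array signal. Their 89 probe sets held 9.09% of the summed signal with nm23-H1, 9.85% with nm23-H2 and 9.27% with vector. Large-subunit probe sets held 4.38% with nm23-H1, 4.62% with nm23-H2 and 4.59% with vector, and small-subunit probe sets 4.71%, 5.23% and 4.69%. The higher share on the nm23-H2 array therefore lay mainly in the small subunit. Of the 89 probe sets, 78 were above the floor on all 3 arrays, 9 were below it on all 3, and 63 averaged at least 1000 units. The probe set used for a gene, the brightest of those not ending in _x_at (a suffix for probes that can bind other transcripts), averaged at least 1000 units for 44 genes. The dim ones were those of RPL14, RPL22, RPL27A, RPL31, RPL34, RPL38 and RPLP2. Ribosomal protein genes have many processed pseudogenes, and 32 of the 89 probe sets, including the only ones for 8 genes, end in _x_at, so part of a signal may come from near-identical copies.

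With nm23-H1 the ribosomal protein genes stood close to vector, most of them slightly lower. The median difference was -0.11 for the large subunit, with 5 genes higher and 26 lower, and -0.09 for the small subunit, with 7 higher and 13 lower. Over all 7986 measured genes the median was 0.00, with 49.6% higher and 47.7% lower. No member reached 1.5-fold in either direction, where 8.63% of all measured genes were at least 1.5-fold higher, 7.53% at least 1.5-fold lower and 16.2% past it either way; none reached 2-fold, against 2.14% higher and 1.73% lower. The small shift depended on scaling: under quantile normalization and with the values as deposited the small-subunit median was 0.01 and 0.02, and scaled to the hybridisation controls both medians were above 0.

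With nm23-H2 the small subunit read higher than vector and the large subunit was divided. The median difference was 0.21 for the small subunit, with 18 genes higher and 2 lower, and 0.03 for the large subunit, with 17 higher, 13 lower and 1 equal. Over all measured genes it was -0.06, with 40.1% higher and 54.4% lower. Only RPL3 and RPS6 of the 51 members passed 1.5-fold, both higher, against 10.6% of all measured genes higher, 14.2% lower and 24.8% either way, and none passed 2-fold, against 3.59% higher and 3.61% lower. The count depended on scaling: with the values as deposited 14 members (27.5%) passed 1.5-fold, against 28.4% of all genes, and scaled to the hybridisation controls 24 (47.1%), against 53.8%. Under quantile normalization 1 member (1.96%) passed it, against 23.8%. That member was the dim RPLP2 (0.68), while RPL3 was at 0.52 and RPS6 at 0.37. The direction of the family again depended on scaling: quantile normalization gave -0.03 for the small and -0.10 for the large subunit, and scaling to the hybridisation controls gave -0.51 and -0.68. Among the 41 other genes averaging at least 4000 units, the median was 0.20, beside 0.17 for the 32 members at that level.

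Set against each other, the nm23-H1 array had lower signals than the nm23-H2 array for 42 of 51 members. The median was -0.14 for the large subunit, with 7 genes higher and 24 lower, and -0.33 for the small subunit, with 2 higher and 18 lower. Over all measured genes 56.2% were higher and 39.3% lower. No member reached 1.5-fold, against 16.3% of all measured genes higher, 10.6% lower and 26.9% either way, and for 2-fold the shares over all genes were 3.76% higher and 3.81% lower. This count too depended on scaling, with 15 members (29.4%) against 27.0% of all genes as deposited, and 26 (51.0%) against 64.4% scaled to the hybridisation controls. Other genes at 4000 units or more had a median of -0.31, close to the -0.32 of the members at that level. Both subunit medians turned positive under quantile normalization, at 0.06 for the large and 0.03 for the small subunit, and under the control scaling, at 0.73 and 0.55.

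**Figure D1:**
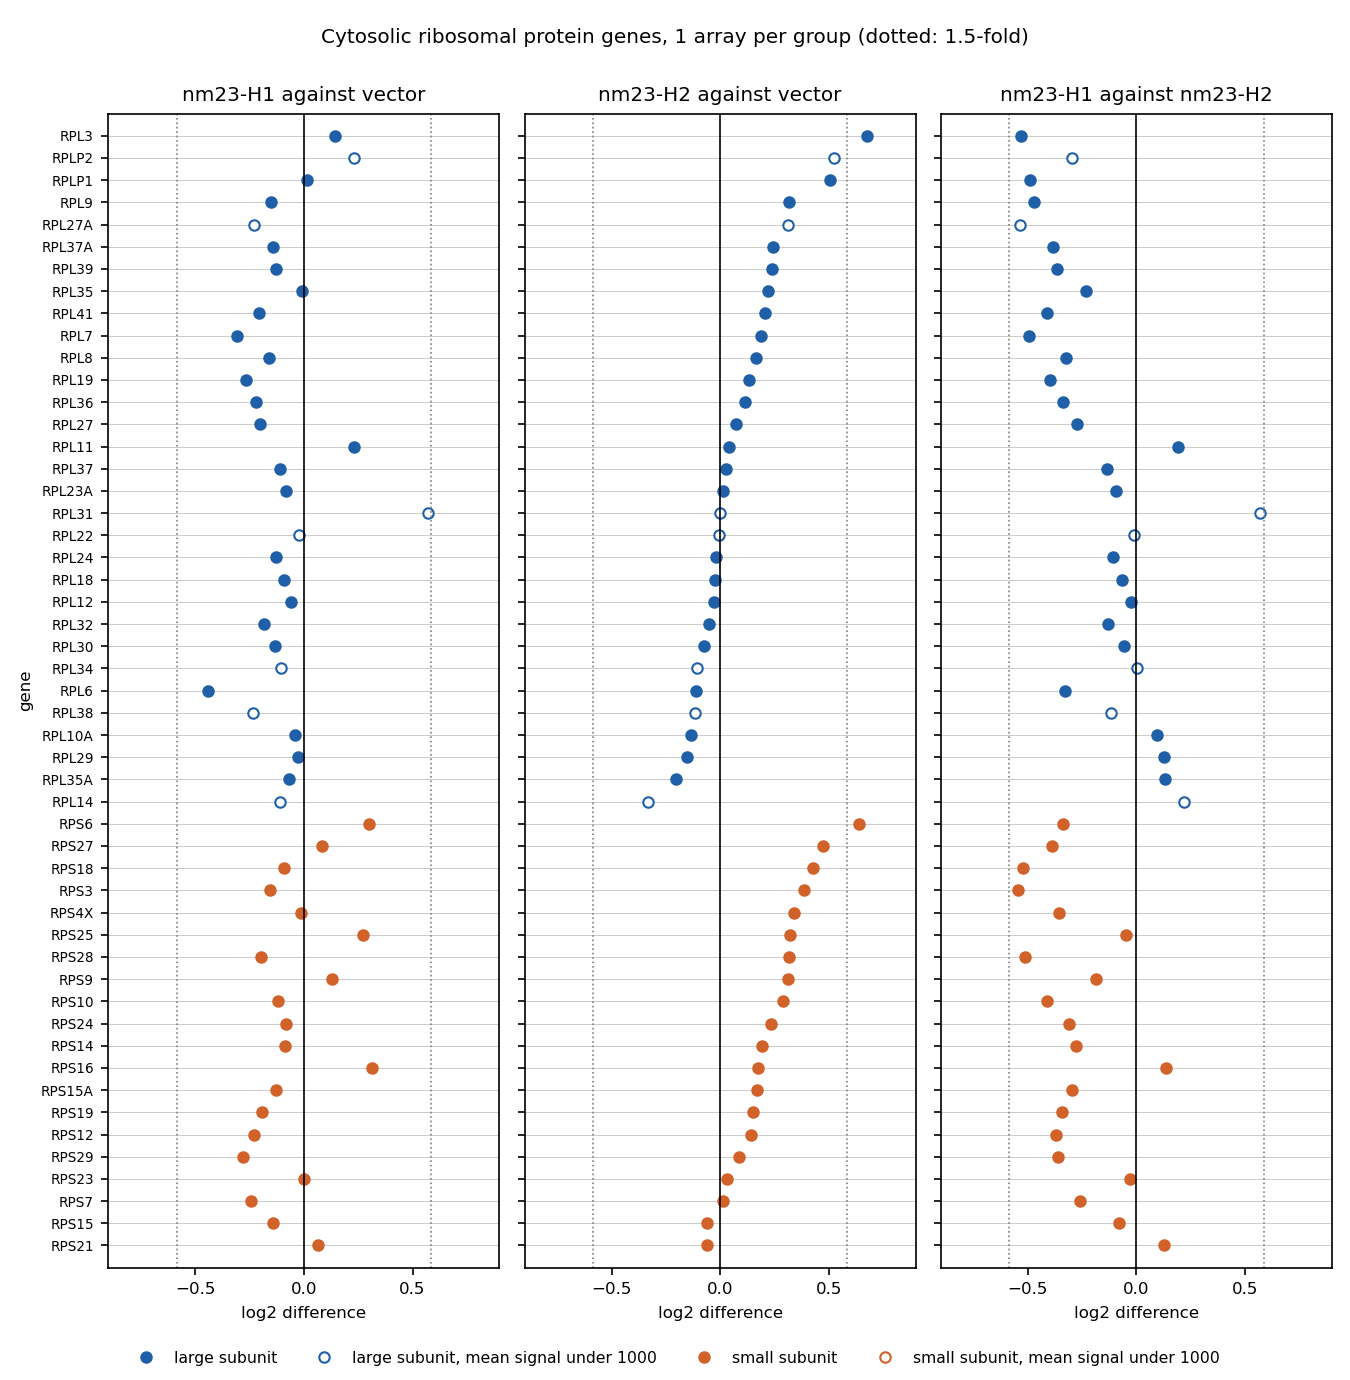
Log2 difference of each of the 51 genes in the 3 comparisons, large subunit in blue and small subunit in orange, ordered within each subunit by nm23-H2 against vector; open circles mark genes whose probe set averaged under 1000 signal units and dotted lines mark 1.5-fold. Only RPL3 (0.68) and RPS6 (0.64) lie past 1.5-fold, both in nm23-H2 against vector.

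By SD, the members lay closer together than other bright genes. Among genes averaging at least 4000 units, the SD of the nm23-H1 differences from vector was 0.13 for the 32 members and 0.22 for the 41 other genes. For nm23-H2 against vector it was 0.18 for members and 0.42 for the others, and for nm23-H1 against nm23-H2 it was 0.18 and 0.40. With nm23-H2 against vector the quartiles were no closer together for members, at 0.01 and 0.30, than for the others, at 0.07 and 0.33. The lowest and highest values there were -0.08 and 0.64 for members and -0.81 and 1.93 for the others. Multiplying an array by a factor leaves these SDs of members as they are. Quantile normalization, which can change them, gave 0.15 for members and 0.23 for the others with nm23-H1, 0.17 and 0.39 with nm23-H2, and 0.17 and 0.37 between the nm23 arrays. In all, 43 of 51 members (84.3%) lay within 0.25 of vector with nm23-H1, against 49.6% of all measured genes, and 36 of 51 (70.6%) with nm23-H2, against 42.0%. Most measured genes are dimmer than the members. Among genes at 4000 units or more, the shares with nm23-H1 were closer, at 90.6% of members and 80.5% of the others. With nm23-H2 they were 71.9% and 43.9%. Unlike the SDs, the shares within 0.25 of vector depend on how the arrays are scaled. With nm23-H2 the large- and small-subunit medians were 0.36 and 0.54 as deposited. They were -0.68 and -0.51 under the control scaling, so in both cases the medians themselves lay outside 0.25. The only error these arrays give is the disagreement between probe sets of a gene. For the 12 members with a second probe set at 1000 units or more it had an SD of 0.14 in each comparison. For all 19 members with several usable probe sets it was 0.23 with nm23-H1, 0.16 with nm23-H2 and 0.27 between the nm23 arrays. It does not cover differences between cultures, transfectants or hybridisations.

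**Figure D2:**
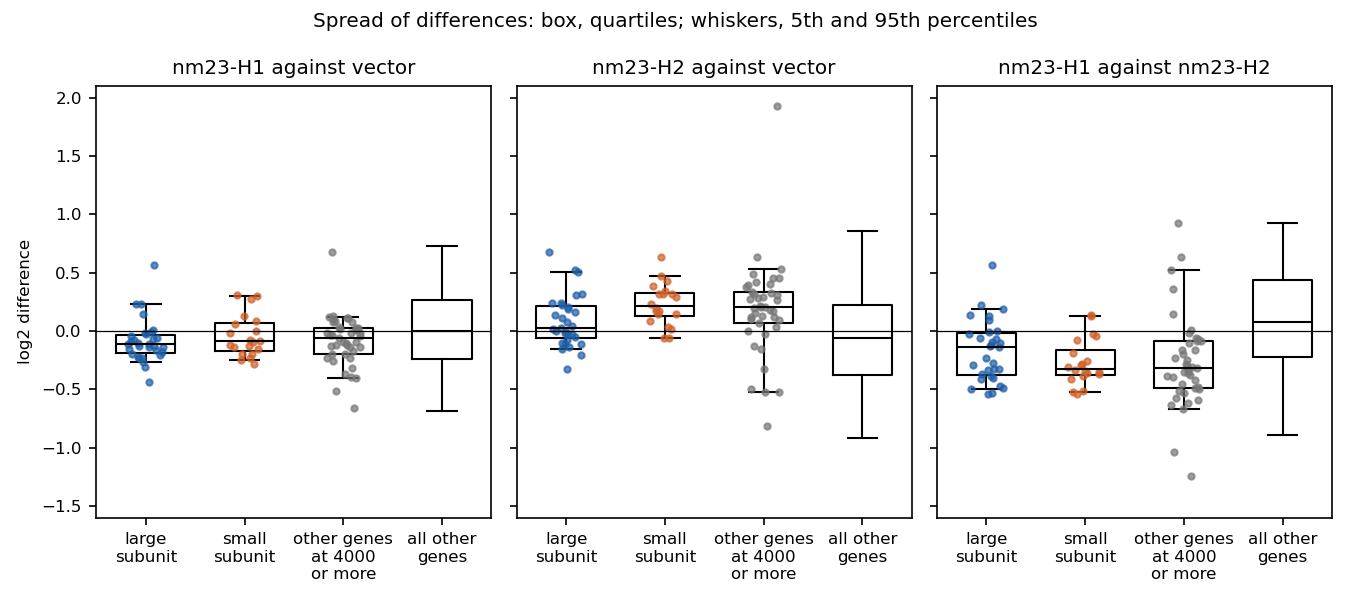
Log2 differences of large-subunit genes, small-subunit genes, other genes averaging at least 4000 signal units, and all other measured genes (box only); boxes span the quartiles with the median as a line and whiskers reach the 5th and 95th percentiles. The member points span a narrower range than those of the other bright genes, but with nm23-H2 the large-subunit box is about as wide as theirs. The other bright genes have medians of -0.06, 0.20 and -0.31 in the 3 comparisons, beside -0.11, 0.03 and -0.14 for the large and -0.09, 0.21 and -0.33 for the small subunit.

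**Figure D3:**
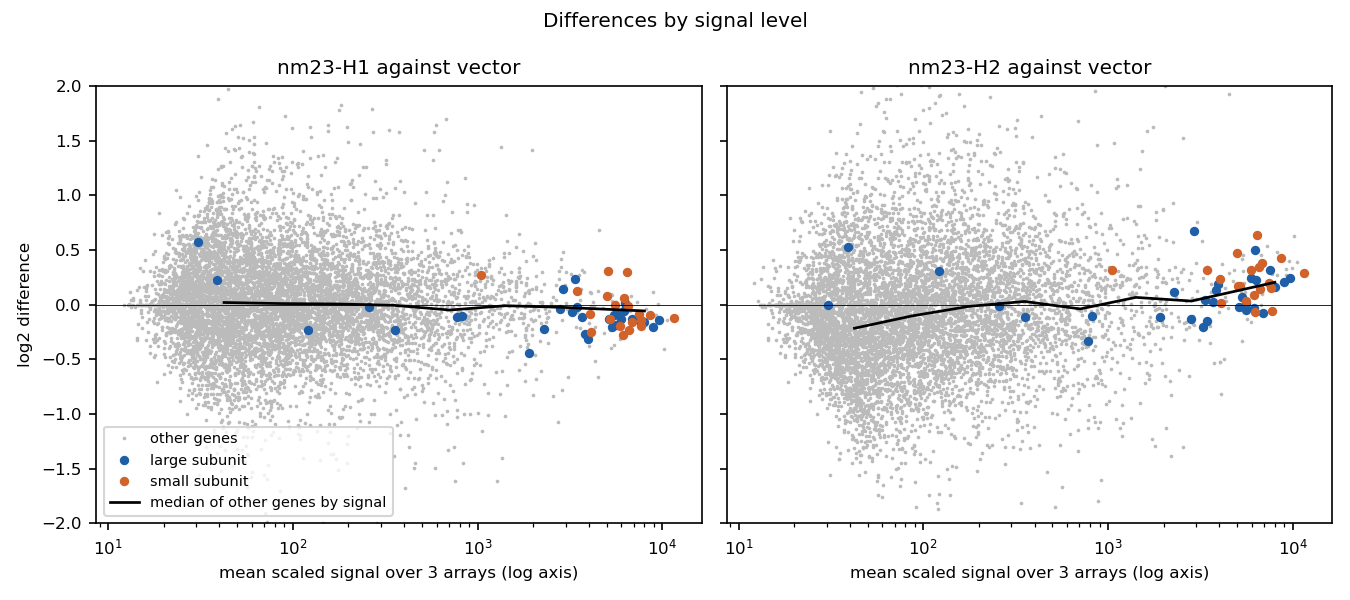
Log2 difference against the mean scaled signal over the 3 arrays (log axis), for members in colour and other genes in grey, with the running median of the other genes as a black line; points beyond 2 in either direction are not drawn. Most members lie at the bright end, where the black line is slightly below 0 for nm23-H1 and above 0 for nm23-H2.

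RPS6, the S6 kinase substrate of the small subunit (chr9:19375715-19380236, minus strand), was higher than vector with both constructs. The probe set used for it gave 6256 units with nm23-H1, 7908 with nm23-H2 and 5081 with vector. Another probe set not ending in _x_at gave 5689, 6811 and 3792 units on the same arrays, and a bright one ending in _x_at gave 7685, 9043 and 5684. The order was the same in all 3: nm23-H2 highest, nm23-H1 next and vector lowest. The log2 differences were 0.30, 0.59 and 0.44 with nm23-H1 and 0.64, 0.84 and 0.67 with nm23-H2, and the remaining probe set was below the floor. The distance from the median of all members was also taken. By it RPS6 stood 0.41 to 0.49 above the family with nm23-H1 and 0.47 to 0.50 above it with nm23-H2 over 5 scalings. Apart from quantile normalization, these scalings differ only by a factor per array, which hardly moves such a distance. The narrow ranges here and below therefore say little about stability. Quantile normalization gave 0.49 for RPS6 with nm23-H1 and 0.47 with nm23-H2.

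RPL3, a large-subunit protein that reaches towards the peptidyl transferase centre (chr22:39312882-39319623, minus strand), was higher with nm23-H2. Its probe set gave 2608 units with nm23-H1, 3768 with nm23-H2 and 2358 with vector, differences from vector of 0.15 and 0.68. It ends in _x_at. The 4 probe sets that list RPL3 beside other genes read higher with nm23-H2 than with vector, by 0.33 to 0.65. With nm23-H1 they were between -0.07 and 0.25. They end in _x_at too, so no RPL3 value here is free of that limit. RPL3 stood 0.53 to 0.61 above the member median with nm23-H2 over the 5 scalings, the 0.61 being from quantile normalization. Scaled to the hybridisation controls and without that centring, RPL3 and RPS6 were at -0.05 and -0.09 with nm23-H2, where the subunit medians were -0.68 and -0.51.

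RPLP1, an acidic protein of the stalk that recruits translation factors to the large subunit, was next among members averaging at least 1000 units in the nm23-H2 comparison. It gave 5515 units with nm23-H1, 7753 with nm23-H2 and 5468 with vector, differences from vector of 0.01 and 0.50. Its stalk partner RPLP2 gave only 38.0, 46.7 and 32.4 units, near the floor, with differences of 0.23 and 0.53. As scaled here, RPLP1 was therefore level with vector in the nm23-H1 cells and higher in the nm23-H2 cells. With nm23-H2 it lay 0.35 to 0.36 above the member median over the 5 scalings. Its difference from vector with nm23-H1 was 0.12 both as deposited and under quantile normalization. With nm23-H2 quantile normalization reduced the difference to 0.25.

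Other small-subunit genes were higher with nm23-H2 and level with vector or slightly lower with nm23-H1. RPS27, a zinc finger protein of the small subunit, gave 4608 units with nm23-H1, 6028 with nm23-H2 and 4347 with vector (0.08 and 0.47 against vector). RPS18, in the head of the subunit where it meets the large one, gave 7371, 10574 and 7867 units (-0.09 and 0.43). RPS3, which lines the messenger RNA entry channel and also acts in DNA repair, gave 5741, 8371 and 6407 units (-0.16 and 0.39). On the nm23-H2 array RPS18 and RPS3 were the brightest of the 3 arrays, and they gave the 2 lowest values of the small subunit for nm23-H1 against nm23-H2, -0.52 and -0.54, which quantile normalization reduced to -0.06 and -0.13. RPS28, a small protein near the messenger RNA exit, was alike at 4974, 7099.7 and 5702 units, a difference between the nm23 arrays of -0.51, which under quantile normalization was -0.20 and below those of RPS18 and RPS3. RPS4X, encoded on the X chromosome, gave 5949, 7614 and 6008 units, with differences from vector of -0.01 and 0.34. Quantile normalization also reduced the nm23-H2 differences from vector. They were then 0.26 for RPS27, 0.09 for RPS18, 0.06 for RPS3, 0.08 for RPS28 and 0.08 for RPS4X.

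At the other end of the small subunit, RPS29, RPS7 and RPS12 were the lowest with nm23-H1. RPS29, a zinc finger protein, gave 5266 units with nm23-H1, 6774 with nm23-H2 and 6389 with vector, a difference of -0.28 from vector with nm23-H1. RPS7, one of the ribosomal proteins that can bind MDM2, gave 3626, 4340.2 and 4299 units (-0.25). Its other probe set, ending in _x_at, gave 3743, 3312 and 4102 units, -0.13 with nm23-H1 and -0.31 with nm23-H2. RPS12, a small-subunit protein, gave 5746, 7429 and 6730 units (-0.23). By the probe sets used, all 3 were at or slightly above vector with nm23-H2, at 0.08, 0.01 and 0.14, but for RPS7 the direction depended on the probe set. By the same choice, and as scaled here, RPS21 and RPS15 were the only small-subunit genes below vector with nm23-H2, both at -0.06. Quantile normalization put RPS29, RPS7 and RPS12 below vector too, at -0.18, -0.18 and -0.16. It did the same for RPS14, RPS16, RPS19 and RPS23, at -0.16, -0.04, -0.17 and -0.18. As scaled here, RPS23, a protein of the decoding centre, hardly differed between arrays, at 5529 units with nm23-H1, 5645 with nm23-H2 and 5525 with vector.

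RPS16, whose tail reaches the transfer RNA at the P site, and RPS25, needed by several viral internal ribosome entry sites, read higher with both constructs. RPS16 gave 5585 units with nm23-H1, 5081 with nm23-H2 and 4501 with vector (0.31 and 0.17), but its other probe set, also bright, gave -0.10 and 0.04. RPS25 gave 1096, 1132 and 906 units (0.27 and 0.32). The RPS16 difference thus rested on 1 of its probe sets. RPS19 and RPS14, known from Diamond-Blackfan anaemia and the 5q- syndrome, followed the family. RPS19 gave 6731, 8544 and 7703 units (-0.19 and 0.15). RPS14 gave 6848, 8309.8 and 7265 units (-0.09 and 0.19).

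**Figure D4:**
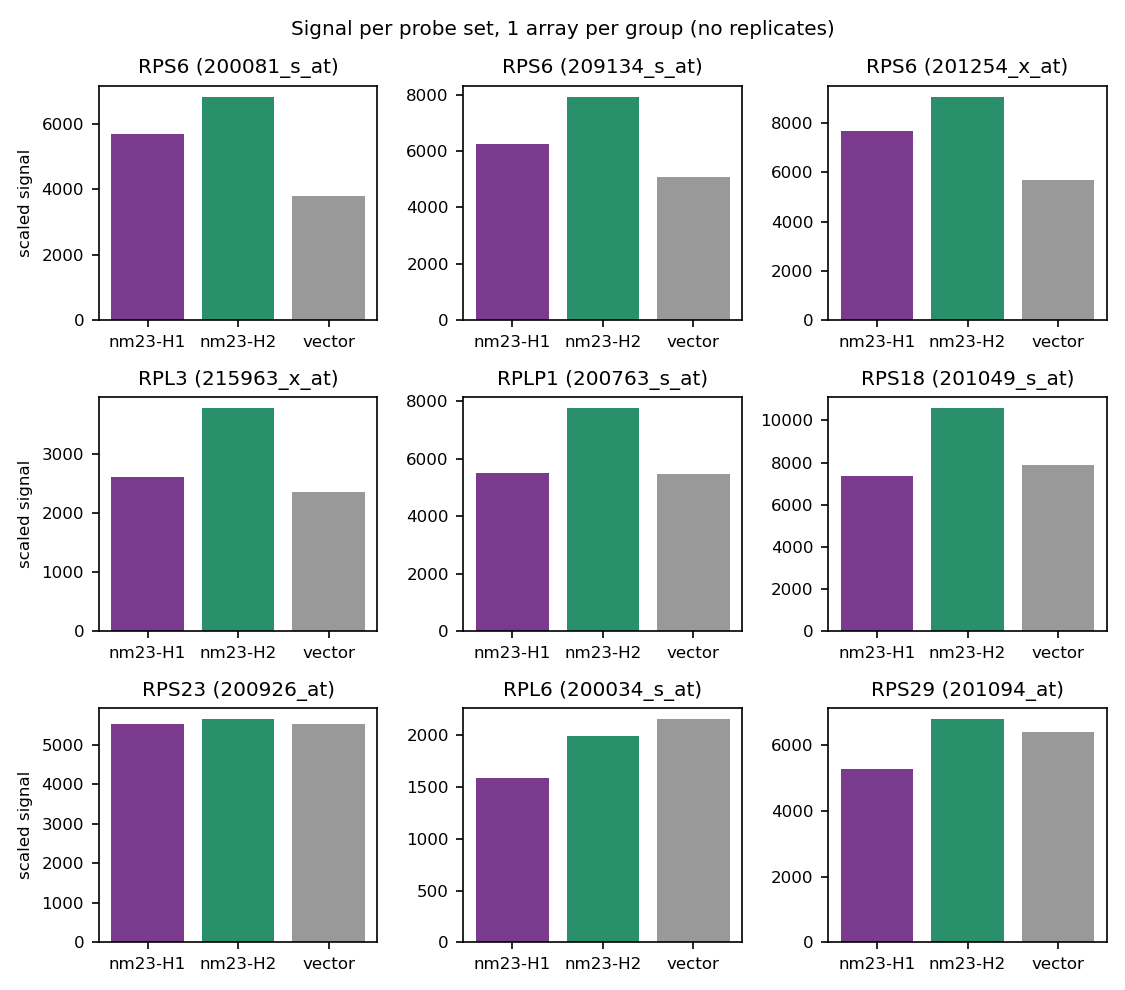
Scaled signal on the nm23-H1, nm23-H2 and vector arrays (bars, 1 array each, no error bars) for 9 probe sets. The 3 RPS6 probe sets share one order with vector lowest, RPL3, RPLP1 and RPS18 are highest with nm23-H2, RPS23 is level, and RPL6 and RPS29 are lowest with nm23-H1.

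In the large subunit, RPL6 was the lowest with nm23-H1. It gave 1583 units with nm23-H1, 1989.6 with nm23-H2 and 2150 with vector, differences from vector of -0.44 and -0.11. Over the 5 scalings it lay 0.33 to 0.40 below the member median with nm23-H1, and it was the lowest member in each. The 0.40 was from quantile normalization, the only one of these that is not a factor per array. RPL7 gave 3239.8, 4566 and 4015 units (-0.31 and 0.19), and its other bright probe set gave 1996, 2965 and 2011 (-0.01 and 0.56). Both RPL7 probe sets were highest with nm23-H2, and with nm23-H1 the first was lower than vector and the second level with it. RPL19 gave 3260.1, 4301 and 3922 units (-0.27 and 0.13).

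RPL11, which with RPL5 forms the 5S particle that can bind MDM2, went against most of the large subunit with nm23-H1. It gave 3700.1 units with nm23-H1, 3244 with nm23-H2 and 3151 with vector, differences from vector of 0.23 and 0.04, and it was 0.19 higher with nm23-H1 than with nm23-H2. RPL14, RPL35A and RPL29 were the lowest of the large subunit with nm23-H2. RPL14 gave 792, 680 and 855 units (-0.11 and -0.33), but its brighter _x_at probe set gave 1428, 1439 and 1323 (0.11 and 0.12). RPL35A, another Diamond-Blackfan anaemia gene, gave 3300.2, 3009.5 and 3464 units (-0.07 and -0.20). RPL29 gave 3515, 3217 and 3577 (-0.03 and -0.15). For RPL14 the direction therefore depended on the probe set.

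Several wide differences in the family came from dim probe sets. RPL31, a protein at the exit of the peptide tunnel, was above the floor on the nm23-H1 array only, at 42.0 units, against 22.7 with nm23-H2 and 26.8 with vector, which is at least 1.48-fold higher against the floor. Its bright _x_at probe set gave 5760, 7146 and 6133 units, -0.09 and 0.22 against vector. RPL27A gave 100.5 units with nm23-H1, 146 with nm23-H2 and 118 with vector, a difference of -0.54 between the nm23 arrays. The probe sets of RPL37A disagreed most: the one at 8460, 11031 and 9323 units gave -0.14 with nm23-H1, and the one at 203, 467 and 432 units gave -1.09. RPL38, which in mice is linked to the translation of Hox messenger RNAs, gave 329, 357 and 386 units (-0.23 and -0.11) by 1 probe set and differences of 0.05 and 0.04 by a bright _x_at one. For RPS28 and RPS14 the disagreement, up to 0.77 and 0.58 over the comparisons, also lay between a bright probe set and a dim one. For RPL18, up to 0.84, it lay between a pair of dim ones, with the bright one between them. RPL22, whose largest range was 0.56, had 5 probe sets. The one used gave 255, 258 and 259 units and hardly differed between arrays.

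Across the 44 members whose probe set averaged at least 1000 units, 31 were highest with nm23-H2, 3 with nm23-H1 and 10 with vector, while 31 were lowest with nm23-H1, 4 with nm23-H2 and 9 with vector. The ratio of the highest to the lowest array had a median of 1.25, between 1.02 for RPS23 and 1.60 for RPL3. Using the brightest probe set of each gene, the gap between the small and the large subunit with nm23-H2 narrowed to 0.10, from medians of 0.21 and 0.11, against 0.19 with the probe sets chosen here. The probe sets that list a ribosomal protein beside other genes gave the same signs as the members, with medians of -0.07 for the large and -0.09 for the small subunit with nm23-H1, and 0.10 and 0.11 with nm23-H2.

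Members were also split by the TOP motif at the annotated start, as a description with no test. With nm23-H2 the median difference from vector, by the brightest probe set, was 0.20 for the 33 genes with the motif and 0.08 for the 12 without. With nm23-H1 it was -0.08 and -0.19. Both groups held genes at the top of the nm23-H2 comparison, RPS6 with the motif and RPL3 without.

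The chromosomal neighbours of RPS6 read higher with nm23-H1 too. Of the 21 other measured genes within 10 Mb of it, 14 were higher than vector with nm23-H1, with a median of 0.31. RPS6 itself was at 0.30 by the probe set used, and at 0.59 and 0.44 by its other bright ones. With nm23-H2, 7 of the 21 were higher and their median was -0.07, beside 0.64 for RPS6. The neighbours of RPS29 on chromosome 14 read lower with nm23-H1, with a median of -0.38 over 35 genes of which 4 were higher, and lower with nm23-H2, at -0.43, where RPS29 itself was at 0.08. The 135 neighbours of RPL3 had medians of -0.35 with nm23-H1 and -0.12 with nm23-H2, both on the other side of 0 from RPL3. Across the 51 members, the difference of a gene and the median of its neighbours had a Pearson correlation of 0.23 and a Spearman correlation of 0.32 with nm23-H1, and of 0.03 and 0.01 with nm23-H2. With RPS6 left out, they were 0.12 and 0.28 with nm23-H1, and 0.03 and 0.02 with nm23-H2. These points share arrays and, for nearby genes, neighbours, and the part of chromosomal position in these values was not tested.

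**Figure D5:**
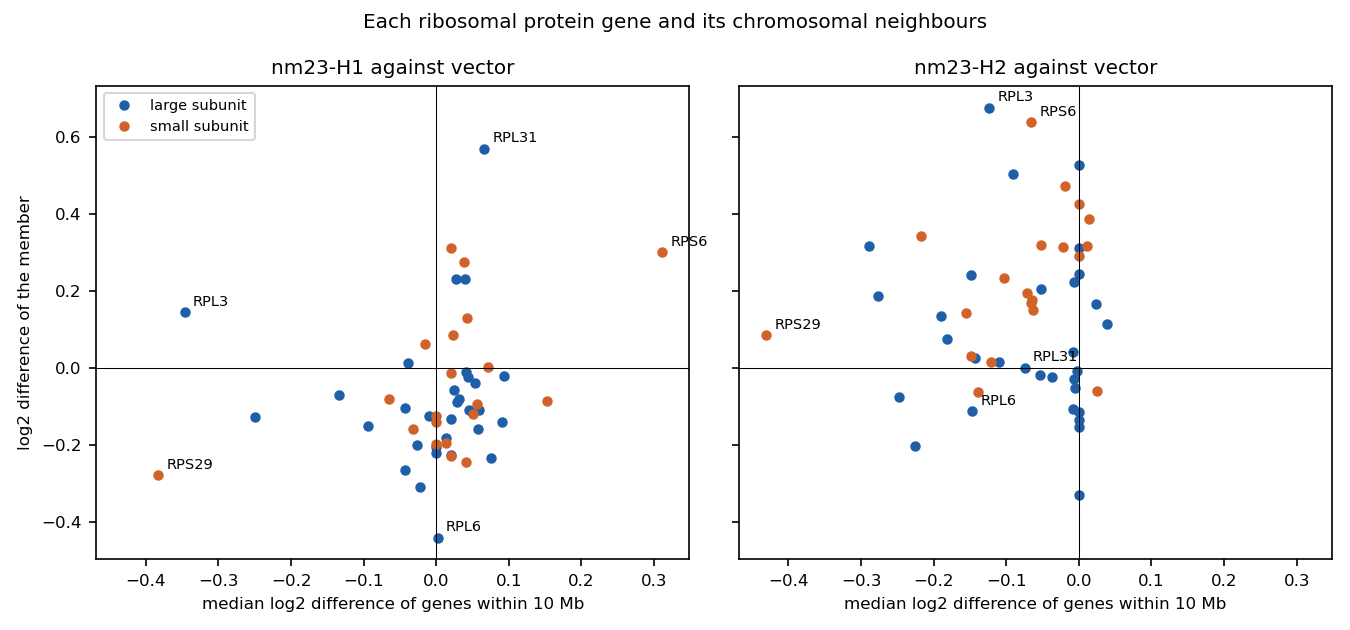
Log2 difference of each member against the median log2 difference of the other measured genes within 10 Mb, for nm23-H1 and nm23-H2 against vector. By the probe set used, RPS6 and its neighbours are both higher with nm23-H1 (0.30 and 0.31), while with nm23-H2 RPS6 is at 0.64 and its neighbours at -0.07.

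Related genes did not all follow the family. Of the list of translation factors and other known TOP genes, 18 genes were measured, with medians of -0.12 with nm23-H1 (6 higher, 12 lower) and 0.03 with nm23-H2 (10 higher, 8 lower). The elongation factor EEF1A1 gave 7533 units with nm23-H1, 9329.6 with nm23-H2 and 7738 with vector, close to the pattern of bright members. The initiation factor subunit EIF3D gave 746, 1955 and 1505 units, at -1.01 with nm23-H1, a larger difference than any member showed by the probe set used for it. Another such subunit, EIF3L, went the other way, at 2719, 1606 and 1834 units (0.57 and -0.19). FAU, whose product includes ribosomal protein S30, gave 8147, 10552 and 8753 units (-0.10 and 0.27). The large-subunit paralogue RPL36AL gave 338, 463 and 954 units (-1.50 and -1.04). Chromosomal neighbours were looked at for members only, so the part of position in the values of these related genes was not tested. The mitochondrial ribosomal proteins, which translate inside mitochondria, had 48 of 51 genes measured and medians of 0.04 with nm23-H1 (29 higher, 19 lower) and -0.20 with nm23-H2 (20 higher, 28 lower).

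The genes of the mTORC1 and S6 kinase list were mostly dim. Of 13 measured, 7 were higher and 6 lower with nm23-H1 (median 0.03), and 9 were higher and 4 lower with nm23-H2 (median 0.43). The S6 kinase gene RPS6KB2 gave 121 units with nm23-H1, 272 with nm23-H2 and 155 with vector. LARP1, which binds TOP messenger RNAs, gave 543, 724 and 486 units. The 4 genes lower with nm23-H2 than with vector were EIF4E (-0.95), EIF4EBP2 (-0.51), TSC1 (-0.50) and RHEB (-0.28). In the list of nucleolar stress genes, 5 were measured, 2 higher and 3 lower with nm23-H1 (median -0.10) and 3 higher and 2 lower with nm23-H2 (median 0.42). The cell cycle inhibitor CDKN1A gave 75.1, 290.3 and 114 units (-0.60 and 1.35). GADD45A, a stress response gene, gave 31.3, 155 and 34.5 units (-0.14 and 2.17). SESN1 went the other way, at 58.1, 30.7 and 44.2 units (0.40 and -0.53), and TP53I3 gave 90.9, 91.5 and 97.1 units (-0.10 and -0.08).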

How the data were processed

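The 3 CAL 27 transfectants were hybridised to 1 Affymetrix array each, with 22283 probe sets. Deposited values are intensity signals on a linear scale, made with MAS5 per the submitters' processing notes, and its version and scaling target are not given in the sources used here. Deposited medians were 29.6 with nm23-H1, 29.0 with nm23-H2 and 26.5 with vector. Trimmed means (2nd to 98th percentile) were 85.9, 100.0 and 79.6, and each array was brought to their geometric mean (factors 1.03, 0.881 and 1.11). Lower values were raised to the floor of 28.3, followed by log2. Of the probe sets, 19071 carry 1 symbol, 1043 several and 2169 none. A gene was represented by its brightest probe set, with _x_at probe sets used only where it had no other, and was measured if at least 1 array exceeded the floor. Where one array lies at the floor, the fold is a bound. Calls were at 1.5-fold, with no test.

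The members and lists were chosen with earlier results of these data known. Named genes were the 3 highest and 3 lowest of each subunit per comparison, those past 1.5-fold, the 6 whose probe sets disagree most, 16 genes with known roles, and up to 3 each way per related list, of which a few are shown; EEF1A1 and LARP1 were chosen after their values were seen, as were the distance from the member median and the neighbour values. Gene positions and start sites came from RefSeq on GRCh38.p14. Alternatives changed the scaling, floor, choice of probe set and centring. The main per-gene differences, member medians and 1.5-fold calls were tested on simulated data in which shifts were planted. The alternatives and the other steps were not tested in that way. Python 3.11.15, numpy 2.4.6, pandas 2.3.3 and matplotlib 3.10.9 were used.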

Additional observations from a re-analysis of the deposited data

How the results depend on the processing

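With 1 array per group, the arrays limit precision and no left-out replicate could be tried. No paired analysis was possible because no group has more than 1 array. Medians are given as large, then small subunit. The family's direction depended on scaling. With the values as deposited, the small-subunit median was 0.0206 with nm23-H1 against vector, the medians were 0.36 and 0.54 with nm23-H2 (14 members past 1.5-fold, 27.5%, against 28.4% of all genes), and -0.36 and -0.54 for nm23-H1 against nm23-H2 (15 members, 29.4%, against 27.0%). A common median gave 0.18 and 0.36 with nm23-H2 (5 members, 9.8%, against 24.4% of all genes). It put 3 members past 1.5-fold between the nm23 arrays (5.88%, against 26.4%). Quantile normalization gave 0.00725 for the small subunit with nm23-H1, -0.0978 and -0.0343 with nm23-H2 (1 member, 1.96%, against 23.8% of all genes), and 0.0623 and 0.0265 between the nm23 arrays. The member past 1.5-fold there was RPLP2, and RPL3 and RPS6 fell short of it. Scaling to the hybridisation controls, chosen after seeing the data, gave 0.0344 and 0.0558 with nm23-H1 (1 member, 1.96%, against 20.5% of all genes), -0.68 and -0.51 with nm23-H2 (24 members, 47.1%, against 53.8% of all genes), 0.73 and 0.55 between the nm23 arrays (26 members, 51.0%, against 64.4%), -0.0496 for RPL3 and -0.0877 for RPS6 with nm23-H2.

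Under that scaling the all-gene median moved to 0.14, -0.61 and 0.78 in the 3 comparisons, and with the values as deposited it was 0.17 for nm23-H2 against vector. The split of all genes past 1.5-fold moved as well, at 936 higher and 387 lower as deposited for nm23-H1 against vector, where the scaled values gave 689 and 601, and at 1796 and 458 for nm23-H2 against vector, where they gave 844 and 1138. Probe sets ending in plain _at, which leave 17 genes, gave 0.00112 for the small subunit with nm23-H1, -0.00377 and 0.0310 with nm23-H2 (0 members, against 24.2% of all genes, with no test) and 0.14 for the small subunit between the nm23 arrays. Subtracting the all-gene median put 5 members past 1.5-fold between the nm23 arrays (9.8%, against 25.3% of all genes). Subtracting the median of genes above the 90th percentile of signal gave -0.00852 for the large subunit with nm23-H2. That centring, a floor at the 25th percentile and averaging over probe sets each put 1 member (1.96%) past 1.5-fold with nm23-H1 and 1 between the nm23 arrays. In that order, the shares of all genes were 16.4%, 27.5% and 13.9% with nm23-H1, and 29.1%, 37.7% and 23.8% between the nm23 arrays. Of the 1277 values of named members under all alternatives, 1190 moved by less than the probe error over all genes (SD 0.33, 0.35 and 0.38 in the 3 comparisons). That limit is wider than most member differences, so the count says little about their stability. For members with both probe sets at 1000 units or more the probe error was 0.14. With the values as deposited RPS18 went from 0.43 to 0.76 with nm23-H2 against vector, which stayed within the limit. The sign turned in 158 of the 1277 values, of which 57 came with the control scaling, 26 with quantile normalization and 20 with the values as deposited. Of these, 2, RPL3 and RPS6 above, had been past 1.5-fold. Also added after seeing the data were the limit of 1000 units, leaving out the nm23-H2 array and adding probe sets with several symbols.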
